A study of Mus musculus with 13 samples.

Results

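Baseline expression in the midbrain, and the difference made by loss of Ripk3 from astrocytes without a toxin, was examined in the Saline arm of the experiment. Membership followed the sample labels for treatment and genotype, and the libraries make up 6 of the 13 RNA-Seq libraries. Cre+ Saline (genotype Ripk3fl/fl Aldh1l1Cre+, 3 mice) was compared with Cre- Saline (Ripk3fl/fl Aldh1l1Cre-, 3 mice), and each library came from a separate animal. The other 7 libraries came from mice given MPTP, a neurotoxin that kills dopaminergic neurons. All were male mice of 8 to 12 weeks, and the Cre- animals were littermates.

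Both Saline groups carried the floxed Ripk3 allele. Mice with the Cre transgene received tamoxifen at 60 mg/kg for 5 days, at least 1 week before the experiment. Whether the Cre- littermates also received it is not stated in the paper. Both groups had 5 daily injections of saline. Midbrain tissue was taken 3 days after the last injection, following perfusion with PBS. The groups therefore differed by the Cre transgene and by the deletion it makes, and possibly by tamoxifen. If only Cre+ mice were dosed, effects of tamoxifen and of genotype cannot be told apart. In the Aldh1l1-Cre/ERT2 line, tamoxifen switches on the recombinase in cells that express Aldh1l1, which in the brain are mainly astrocytes, so other cells of the tissue are not targeted; which cells recombined was not examined here. The comparison asked what loss of astrocytic Ripk3 did in a midbrain not exposed to MPTP, and how large a difference these 6 mice could have missed.

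RIPK3 is a kinase that acts downstream of death receptors and Toll-like receptors. With RIPK1 or ZBP1 it can phosphorylate MLKL, which breaks the cell membrane in necroptosis, and it can also promote NF-kappaB signaling and inflammatory transcription without cell death. Astrocytes clear glutamate, buffer potassium and contact vessels and synapses, and in injured tissue they raise GFAP and other reactive genes.

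Between 24327257 and 27098499 reads were assigned to genes per Saline library, and 25998 to 26970 of 49315 genes had at least 1 count. Pairs of libraries had Spearman correlations of 0.985 to 0.994 across genes, a description of libraries that share a tissue, as genes are not independent replicates. Of all genes, 16295 had no count in these libraries, and 18364 had at least 10 counts in at least 3 of them and were tested; 15196 of these (82.7%) were protein-coding. The libraries differed in the tissue they held. Pituitary hormone genes were high in Cre+ Saline mice 1 and 3. Forebrain genes were high in Cre- Saline mouse 1, and muscle genes in Cre+ Saline mouse 1. Cre- Saline mouse 1 also had relatively more counts in short genes (correlation of its deviation with log gene length -0.221, against -0.039 to 0.0999 in the other libraries), and the main results that rest on these libraries are also given without them.

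The libraries had the profile of midbrain. In TPM (the share of a library that a gene takes after correction for gene length, so that genes can be compared with each other), mitochondrial genes led, with mt-Co1, a subunit of cytochrome c oxidase, at 36143 on average and mt-Cytb, of the cytochrome bc1 complex, at 24033. Mitochondrial genes took 10.7% to 13.6% of all TPM and the 20 highest genes 15.2% to 17.9%. Fth1, the heavy chain of the iron store ferritin, had a mean of 7342 TPM. Sparcl1, a matricellular protein of astrocytes, followed with 4315, the lipid carrier Apoe with 4125, the brain creatine kinase Ckb with 3712, and the myelin gene Mbp with 3107. Gm23935 (12412 TPM), a miRNA gene of 57 bases, and Gm42418 (3108 TPM) were also among these 20, and how far their reads are shared with other copies is not known.

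Markers of the dissected region were present in each library. Th, the rate-limiting enzyme of dopamine synthesis, averaged 60.5 TPM (50.6 to 79.6 over the 6 libraries). Ddc, which makes dopamine from L-DOPA, averaged 69.7 TPM, the vesicular monoamine transporter Slc18a2 76.6 TPM and Aldh1a1, an aldehyde dehydrogenase of ventral dopaminergic neurons, 407 TPM. The serotonin-synthesizing enzyme Tph2 stood at 119 TPM, so raphe tissue was included. GABA synthesis (Gad1, 190 TPM) and vesicular glutamate uptake (Slc17a6, 165 TPM) were represented as well. Among astrocyte genes, the glutamine synthetase Glul reached 2167 TPM, the glycolytic enzyme Aldoc 1557, the glutamate transporter Slc1a2 339 and the intermediate filament Gfap 310 (218 to 438). The complement subunit C1qa of microglia stood at 134 TPM and the tight junction gene Cldn5 of endothelium at 146 TPM. Neutrophil genes were near the floor: none of the 5 (S100a8, S100a9, Ngp, Camp and Retnlg) passed the count filter, and their summed level was 0.121 to 2.9 CPM (counts scaled to a common library total, where TMM factors correct each library's total).

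The deletion could not be read from Ripk3 itself in these whole-tissue libraries. The paper that reported these data states that Ripk3 transcript was absent from sorted astrocytes of such mice and unchanged in sorted myeloid cells. Ripk3 (ENSMUSG00000022221, GRCm38 chromosome 14, 55784996 to 55788857) averaged 0.486 TPM and did not pass the filter. Its 20 counts over the 3 Cre- Saline libraries compared with 23 over the 3 Cre+ Saline libraries, a ratio of 1.19 after scaling by library totals (95% interval 0.622 to 2.28, counting error only; two-sided exact permutation p = 0.6, where 0.1 is the smallest that 3 against 3 allows). A ratio as low as 0.622, as loss from part of the cells could give, was therefore not detectable at this depth. In whole tissue, fewer cells of a type and less RNA per cell cannot be told apart, here or in any result below.

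At an adjusted p under 0.05, 6 genes (0.0327% of those tested) were higher in Cre+ Saline and 0 (0.0%) were lower, in edgeR (quasi-likelihood test, p-values adjusted by Benjamini-Hochberg over all genes tested). These were Apold1, Zfp36, Klf4, Btg2, Ccn1 and Tmem252. All are on autosomes and protein-coding. At an unadjusted p under 0.05 there were 397 higher (2.16%) and 511 lower (2.78%) genes, 4.94% in all. DESeq2 on the same 6 libraries called 16 higher and 3 lower genes, and limma voom with sample quality weights called 12 and 2; both sets of higher genes included all 6. Groups did not overlap in 1101 genes that were higher (6.0%) and 1047 that were lower (5.7%).

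Apold1 is an early response gene of endothelial cells (ENSMUSG00000090698, GRCm38 chromosome 6, 134981718 to 134986836). It measured 4.46, 9.71 and 11.4 CPM in Cre- Saline mice 1, 2 and 3, against 47.0, 68.4 and 48.1 in Cre+ Saline. Every Cre+ library lay above every Cre- library, and the groups were far apart. In edgeR's fit this was a log2 difference of 2.67 with an SE of 0.267 (adjusted p = 0.00769), or 6.37-fold with a 95% interval of 4.26 to 9.54.

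Zfp36 encodes tristetraprolin, which binds AU-rich elements and shortens the life of cytokine mRNAs (ENSMUSG00000044786, chromosome 7, 28376784 to 28380253). It had 4.3, 6.93 and 5.74 CPM in Cre- Saline and 15.9, 24.8 and 16.8 CPM in Cre+ Saline. Cre+ mouse 2 was the highest library, and the groups did not overlap. The fold was 3.38 (log2 1.76, SE 0.205; adjusted p = 0.0198, edgeR).

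Btg2, an antiproliferative gene induced by growth factors and p53 (ENSMUSG00000020423, chromosome 1, 134075170 to 134079120), had 10.2, 22.4 and 22.1 CPM in Cre- Saline. In Cre+ Saline it had 59.1, 61.6 and 55.6 CPM. Cre- mouse 1 was the lowest library, well below the other Cre- libraries, and the Cre+ libraries were close to each other. The genotype difference was 1.68 on the log2 scale, with an SE of 0.224 (adjusted p = 0.0365, edgeR).

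Ccn1 encodes a secreted matrix protein that signals through integrins (ENSMUSG00000028195, chromosome 3, 145646976 to 145649981). Its level was 2.41, 7.53 and 9.93 CPM in Cre- Saline, against 33.3, 39.4 and 30.5 CPM in Cre+ Saline. Again Cre- mouse 1 was lowest and no Cre- library reached a Cre+ library. On the log2 scale the groups differed by 2.37, with an SE of 0.332 (adjusted p = 0.0473, edgeR).

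Klf4, a zinc finger transcription factor that responds to shear stress in endothelium (ENSMUSG00000003032, chromosome 4, 55527143 to 55532466), differed by less. It had 8.89, 9.71 and 10.6 CPM in Cre- Saline and 19.5, 24.9 and 19.0 CPM in Cre+ Saline, a 2.17-fold difference (95% interval 1.76 to 2.67; adjusted p = 0.0215, edgeR). Tmem252, a small transmembrane protein (ENSMUSG00000048572, chromosome 19, 24674008 to 24679661), had 1.65, 2.14 and 2.74 CPM in Cre- Saline. In Cre+ Saline its level was 5.88, 6.61 and 6.02 CPM, a log2 difference of 1.5 with an SE of 0.213 (adjusted p = 0.0473, edgeR). Neither gene overlapped between the groups.

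Which of these calls passed depended on single libraries. Apold1 alone of the 6 passed without Cre+ Saline mouse 1 (1 gene higher in all), mouse 2 (3 genes, with Gh and Prl) or mouse 3 (1 gene). No gene passed without Cre- Saline mouse 2, whereas all 6 were called without Cre- Saline mouse 1 (15 genes in all) or mouse 3 (11 genes). Without Cre+ mice 1 and 3 together, which held the most pituitary RNA, no gene passed, and the log2 fold changes were 3.0 for Apold1 and 2.13 for Zfp36. With the spread taken over all 13 libraries none of the 6 passed either, and edgeR gave 176 genes at an unadjusted p under 0.05. All 6 genes kept their direction under all 20 alternatives of the fit. Animal numbers in the deposited headers fall into a lower run (mouse 1 of both groups) and a higher run (mice 2 and 3), and what the runs mark is not stated. Within the higher run all 6 were called, among 14 higher genes and 1 lower; the lower run holds 1 mouse of each group and allows no test.

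Over all 13 libraries, normalized together, Btg2 and Ccn1 stood out. The lowest Cre+ Saline library had 54.8 CPM for Btg2 and 30.1 CPM for Ccn1, above each of the other 10 libraries, whose highest values were 27.4 and 26.9 CPM. For Apold1 and Klf4 this held for 9 of the 10, for Zfp36 for 8 and for Tmem252 for 6. The exceptions include Cre- MPTP libraries, which reached 60.2 CPM for Apold1 and 30.2 CPM for Klf4.

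**Figure D1:**
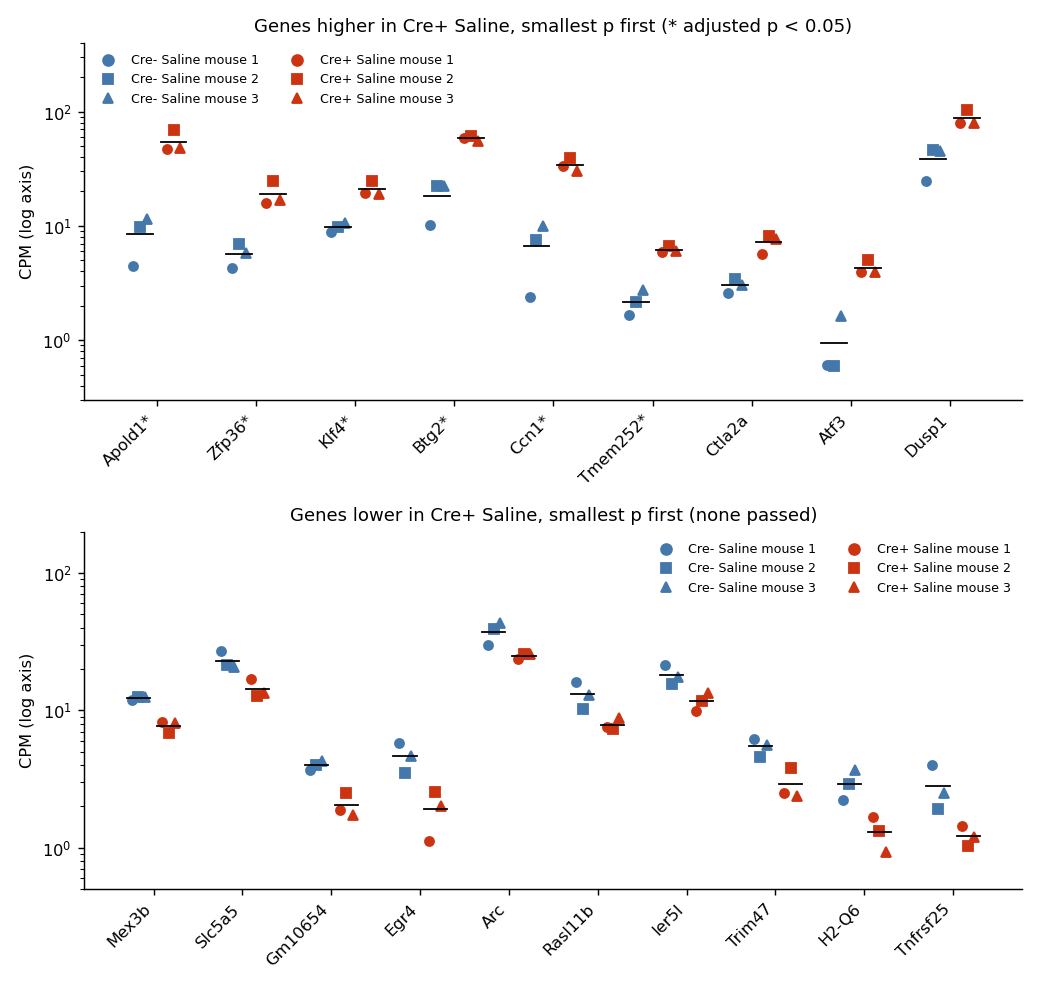
Expression in CPM (log axis) in each of the 6 Saline libraries for the genes with the smallest p in each direction; points are mice, black bars are group means, and asterisks mark an adjusted p under 0.05. Apold1 lay between 4.46 and 11.4 CPM in Cre- mice and between 47.0 and 68.4 CPM in Cre+ mice; no lower gene passed.

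The next genes in order of p did not pass the test. Ctla2a, which encodes an inhibitor of cysteine proteases, had 2.61, 3.41 and 3.04 CPM in Cre- Saline and 5.72, 8.14 and 7.65 in Cre+ Saline (log2 1.25, adjusted p = 0.111, edgeR). Atf3, a stress-induced transcription factor, had 0.603, 0.594 and 1.63 CPM against 3.92, 5.0 and 3.94 (log2 2.17, adjusted p = 0.12, edgeR). Dusp1, a phosphatase that switches off MAP kinases, had 24.5, 45.9 and 45.2 CPM against 79.7, 104 and 79.9 (log2 1.19, adjusted p = 0.167, edgeR). None of the 3 overlapped between the groups, which held for 6.0% of all genes tested in this direction. As they were picked for a small p, this is a description.

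Among genes with lower values in Cre+ Saline, the smallest p belonged to Mex3b, an RNA-binding ubiquitin ligase, with 11.8, 12.4 and 12.4 CPM in Cre- Saline and 8.25, 6.86 and 8.07 CPM in Cre+ Saline. It lay at -0.66 on the log2 scale, with an SE of 0.131 (adjusted p = 0.393, edgeR). The iodide transporter Slc5a5 was at -0.67, the early growth response factor Egr4 at -1.29, the synaptic activity gene Arc at -0.57, the small GTPase gene Rasl11b at -0.73, the ubiquitin ligase Trim47 at -0.92, the class I gene H2-Q6 at -1.16 and the death receptor Tnfrsf25 at -1.2. The same set included Gm10654 (-0.98) and Ier5l (-0.63). All 10 had groups that did not overlap, as did 5.7% of all genes tested in this direction, and adjusted p-values of 0.393 to 0.845 (edgeR). They were picked for a small p, so the lack of overlap is a description. Other fits called some of them lower: DESeq2 on the same 6 libraries Mex3b, Slc5a5 and Egr4, limma voom Mex3b and Arc, and the replicate block Slc5a5. H2-Q6 belongs to a family of near-identical class I genes, so its counts are uncertain.

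Several of the 6 genes belong to the class that cells switch on within minutes of a stimulus. Stretches of 4 of the 6 promoters are printed with motif matches marked, from RefSeq promoters of GRCm38.p6. A match describes letters and is no evidence of binding or of what controls the gene. TATAAA is not particular to this class, as Cga, Prl, Pomc and Lhb also held it. Capitals mark the motif that was found. Where several were found, 1 is shown. It is TATAAA for Apold1 (chr6:134981959-134981988, plus strand) and Ccn1 (chr3:145649986-145650235, minus strand), the CArG box bound by serum response factor for Zfp36 (chr7:28379267-28379296, minus strand) and the cyclic AMP response element TGACGTCA for Btg2 (chr1:134079156-134079405, minus strand).
Apold1: tcctgggagcTATAAAgtatgctcgtccag
Ccn1: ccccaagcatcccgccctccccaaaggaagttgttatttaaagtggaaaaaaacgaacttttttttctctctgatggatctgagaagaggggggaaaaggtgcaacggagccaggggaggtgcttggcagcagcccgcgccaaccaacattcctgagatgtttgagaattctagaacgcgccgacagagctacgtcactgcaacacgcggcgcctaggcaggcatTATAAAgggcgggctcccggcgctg
Zfp36: ccaggccgccCCATAAAAGGagaaagctcc
Btg2: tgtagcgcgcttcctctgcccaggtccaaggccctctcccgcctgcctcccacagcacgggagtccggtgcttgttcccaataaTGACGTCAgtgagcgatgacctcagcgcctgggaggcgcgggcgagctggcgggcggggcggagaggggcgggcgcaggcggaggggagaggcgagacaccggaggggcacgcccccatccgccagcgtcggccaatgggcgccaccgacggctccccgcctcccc
Positions were counted from the start site, over the 250 bases before it. The TATAAA began at -32 in Apold1 and at -25 in Ccn1, and the letters are in 7.59% of 32851 promoters when 1 strand is read. The CArG box of Zfp36 lay at -58 to -49 and the TGACGTCA of Btg2 at -166 to -159; on either strand these are in 1.47% and 1.55% of promoters. The TGACGTCA was also at -143 to -136 in Dusp1. In Klf4 none of the 5 motifs searched was found in this window; the other motifs were TGANTCA (AP-1, 6.75% of promoters on either strand) and TATNCAT (part of POU1F1 sites, 7.92%). TATNCAT was present at -184 to -178 in Apold1, outside the printed bases, and at -88 to -82 in Tmem252, its only match.

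Given these genes, the list of immediate-early genes was examined. It describes transcripts that rise first after a stimulus. All 10 were tested, 0 passed, 8 were above 0, and their median log2 fold change was 0.36, against -0.009 over all genes tested. Dusp1 and Arc are members. The median stayed above 0 under all 20 alternatives but ranged from 0.13, without Cre- Saline mouse 1, to 0.65, with the hormone level as covariate. Nr4a1, an orphan nuclear receptor, had 21.1, 33.2 and 41.9 CPM in Cre- Saline and 72.0, 73.6 and 57.5 CPM in Cre+ Saline (log2 1.08, adjusted p = 0.261, edgeR). Junb, an AP-1 subunit, had 21, 27.3 and 31.1 CPM against 36.6, 39.6 and 36.9 (log2 0.51), and Ier2 had 5.71, 7.76 and 8.37 CPM against 11, 18.2 and 11.9 (log2 0.91).

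Other members of that list did not share this pattern. Fos, the partner of JUN proteins in AP-1, had 11.5, 30.6 and 35.0 CPM in Cre- Saline and 34.8, 38.5 and 32.6 CPM in Cre+ Saline, so that only Cre- mouse 1 lay apart. Fosb was at a log2 fold change of 0.01, the zinc finger factor Egr1 at 0.27 and the neuronal activity factor Npas4 at -0.16. Arc had lower values in every Cre+ library. Without Cre- Saline mouse 1, Arc passed as lower, and Nr4a1, Dusp1 and Atf3 passed as higher.

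Glucocorticoid-induced and clock genes were set beside these, since both vary with handling and time of day. The 9 glucocorticoid-induced genes had a median log2 fold change of 0.04, and 0 passed. At an unadjusted p under 0.05 (edgeR), 2 of the 9 were higher and 1 was lower, against 4.94% of all genes tested in either direction. Sgk1, a kinase induced by corticosteroids, had 37.7, 52.3 and 95.9 CPM in Cre- Saline and 95.5, 90.8 and 92.1 CPM in Cre+ Saline. Its log2 fold change was 0.58 (95% interval 0.04 to 1.12, adjusted p = 0.845, edgeR), and it was called higher without Cre- Saline mouse 3. The chaperone Fkbp5 was level (0.05, 95% interval -0.18 to 0.29) and the metallothionein Mt1 was at -0.25. The 10 clock genes had a median of 0.01, and all had intervals within 2-fold. Per1 was at 0.16 and Dbp, an output gene of the clock, at -0.39 (adjusted p = 0.845, edgeR). The part of handling or time of day in the 6 called genes was not tested.

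The remaining genes were bounded by 95% intervals of the log2 fold change. These bounds are on whole tissue. For a gene that other cells also express, a change confined to astrocytes could be larger than the bound. The median log2 fold change of all 18364 genes was -0.009 and the median absolute value 0.12; 78.7% lay under 0.25 in absolute value and 193 genes had an estimate over 2-fold. The whole interval lay within 2-fold up or down for 15279 genes (83.2%) and within 1.5-fold for 11825 (64.4%). The share within 2-fold was lower in some other fits. Over all 13 libraries it was 64.4% with edgeR and 67.4% with DESeq2, and with the hormone level as covariate it was 69.9%. The median width was 0.602, that is, 0.301 on either side, or 1.23-fold. The biological coefficient of variation was 0.1274.

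How tight a bound was depended on the level of the gene. Of 2575 genes under 1 CPM, 14.7% were bounded within 2-fold, and their median half-width was 0.968 on the log2 scale. Of 5024 genes of 1 to 10 CPM, 83.6% were so bounded, of 8420 genes of 10 to 100 CPM 99.3%, and of 2345 genes of 100 CPM or more 99.8%. The half-width was 0.246 in the class of 10 to 100 CPM and 0.219 above it. By kind of gene, 90.3% of protein-coding genes were bounded within 2-fold, against 53.7% of 648 lincRNAs. Of the 6 called genes, 5 were in the class of 10 to 100 CPM and 1 in that of 1 to 10.

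**Figure D2:**
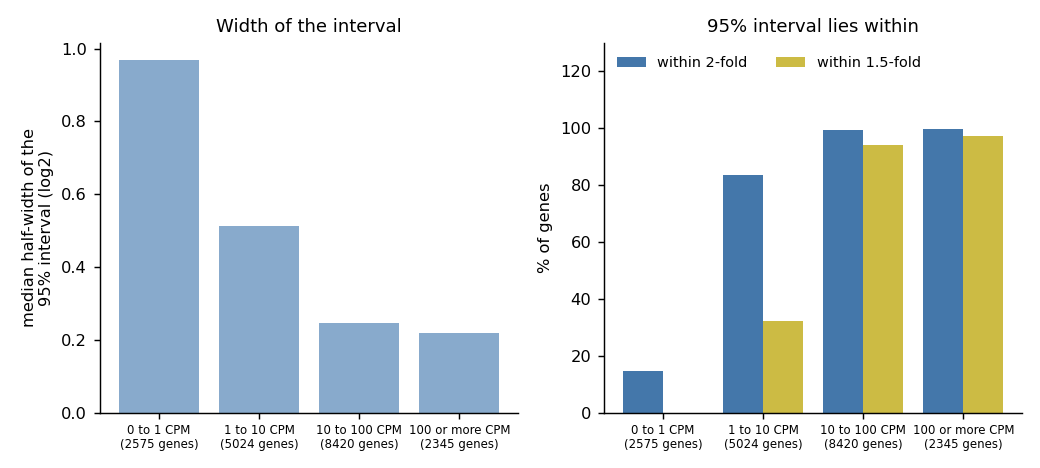
Left, median half-width of the 95% interval of the log2 fold change for genes grouped by mean CPM; right, percent of genes in each class whose interval lies within 2-fold or 1.5-fold. The half-width was 0.968 under 1 CPM and 0.219 at 100 CPM or more, and 14.7% and 99.8% of genes were bounded within 2-fold.

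Astrocyte identity genes were alike in both genotypes within narrow bounds. All 17 were tested, 0 passed, and every interval lay within 2-fold, with a median log2 fold change of 0.01 and summed levels of 8365 to 9789 CPM in Cre- Saline and 9136 to 9604 CPM in Cre+ Saline. Aldh1l1, the folate enzyme whose promoter drives the recombinase, had 84.1, 79.1 and 104 CPM against 87.1, 88.2 and 90.1, with a log2 fold change of -0.01 (95% interval -0.25 to 0.23). Slc1a2, the main glutamate transporter, was at 0.18 (-0.06 to 0.42), Slc1a3 at -0.13 and Glul at -0.01 (-0.2 to 0.18). The gap junction gene Gja1 was at 0.13 and the transcription factor Sox9 at -0.15.

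Among these 17, 2 reached an unadjusted p under 0.05. Gfap had 296, 368 and 347 CPM in Cre- Saline and 414, 357 and 552 CPM in Cre+ Saline. The groups overlapped, and Cre+ mouse 3 was the highest (log2 0.39, 95% interval 0.07 to 0.71, adjusted p = 0.845, edgeR). That library also held Hox genes of the hindbrain and spinal cord (Hoxb8 15.1 CPM, at most 0.259 CPM in the others), and without it the Gfap difference was 0.2 (-0.09 to 0.49); the part of that tissue in it was not tested. Aqp4, the water channel of astrocyte endfeet, had 204, 317 and 266 CPM against 321, 324 and 345, without overlap (log2 0.33, 95% interval 0.03 to 0.63, adjusted p = 0.845, edgeR). Its log2 fold change was 0.18 (-0.01 to 0.37) without Cre- mouse 1, and 0.3 to 0.49 without any other single mouse.

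Genes of reactive astrocytes did not pass the test in either direction. The 13 pan-reactive genes had a median log2 fold change of 0.24, and 11 of 13 were above 0. The direction rested on Cre+ mice 1 and 3: the median was 0.11 without Cre+ mouse 1, 0.13 without Cre+ mouse 3 and -0.04 without both, and it reached 0.39 without Cre+ mouse 2. Their summed level was 409 to 484 CPM in Cre- Saline and 465 to 676 CPM in Cre+ Saline, most of it Gfap. Serpina3n, a protease inhibitor, was at 0.21 (-0.03 to 0.46), the hyaluronan receptor Cd44 at 0.45 (-0.06 to 0.96) and the filament gene Vim at -0.14 (-0.39 to 0.1). Lcn2 and Timp1 had at most 2.04 CPM and wide intervals. Of 12 A1 genes, 11 were tested, with a median of -0.11; the class I gene H2-D1 was at -0.11 (-0.32 to 0.11) and the immunoproteasome subunit Psmb8 at -0.28. Of 12 A2 genes, 11 were tested, with a median of -0.04. Ptgs2, the inducible cyclooxygenase, had 2.41, 2.73 and 1.59 CPM against 5.96, 3.64 and 3.71 (log2 0.98, 95% interval 0.39 to 1.57, adjusted p = 0.845, edgeR).

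The necroptosis and death receptor genes gave bounds of the same kind. Of 16, 14 were tested, 0 passed and 12 had intervals within 2-fold; the median was 0.02. Upstream, the receptor Tnfrsf1a was at -0.18 (-0.43 to 0.07), its adaptor Tradd at -0.13 and the receptor Tlr3 at 0.09. Ripk1, the partner kinase of RIPK3, had 3.18, 4.79 and 5.85 CPM in Cre- Saline and 5.36, 4.42 and 5.83 CPM in Cre+ Saline, a log2 fold change of 0.17 (-0.32 to 0.67). Casp8, the protease that cleaves RIPK1 and RIPK3, was at 0.03 (-0.43 to 0.49), Fadd at -0.17 and the caspase-8 regulator Cflar at 0.16. The deubiquitinase Cyld was the most precisely bounded, at 0.14 (-0.05 to 0.32), whereas the executioner Mlkl, at 0.165 to 0.72 CPM, was only bounded between -1.38 and 0.92. Zbp1, the nucleic acid sensor, did not pass the filter.

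Downstream and inflammatory genes were low or level. All 13 NF-kappaB subunits and inhibitors had intervals within 2-fold (median -0.04). The inhibitor Nfkbia was at 0.33 (-0.07 to 0.72), Rela at -0.11 and Relb at -0.35 (-0.68 to -0.03, adjusted p = 0.845, edgeR). Of 12 damage signals and receptors 9 were tested, with a median of -0.01. The damage signals Hmgb1 and S100b were at -0.01 (-0.28 to 0.26) and 0.01 (-0.22 to 0.25), and their receptor Ager, at 0.618 to 1.04 CPM, at 0.02 (-0.72 to 0.75). The 10 interferon-stimulated genes had a median of 0.05. Of 12 cytokines and chemokines only Cxcl10, Csf1, Tgfb1 and Cx3cl1 passed the filter. Tnf, Il1b, Il6, Ccl2, Ccl3, Ccl4, Ccl5 and Cxcl1 had 0 to 0.52 CPM and were not tested. A decrease or a small difference in them was not detectable at this depth.

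**Figure D3:**
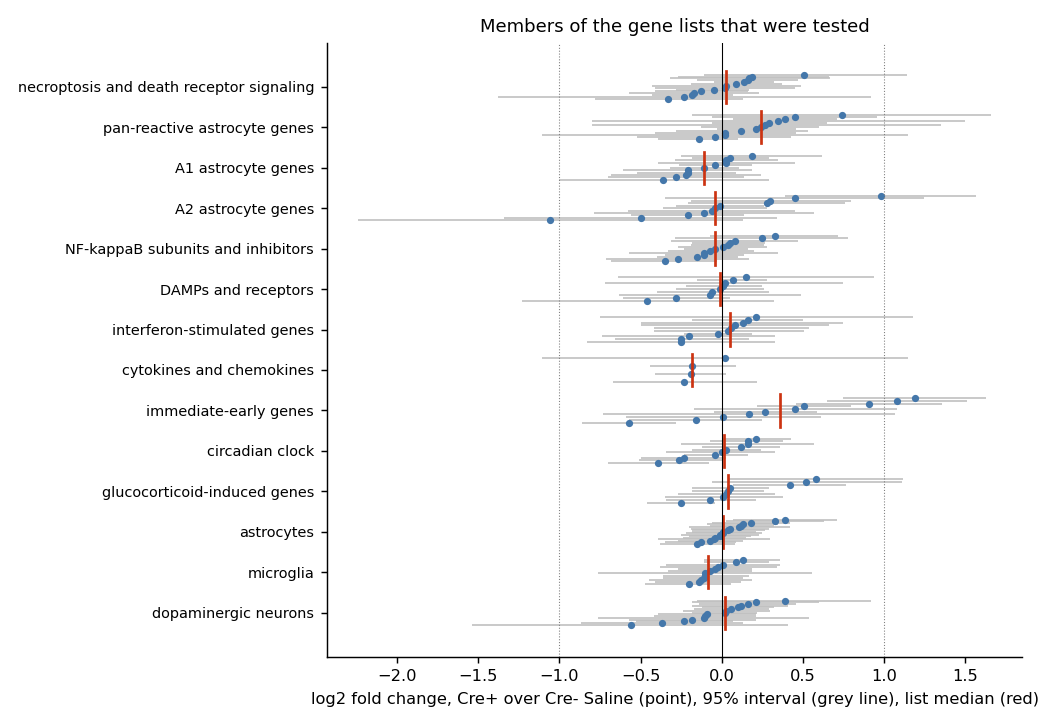
Log2 fold change (Cre+ over Cre- Saline) of each tested member of 14 gene lists (points) with its 95% interval (grey) and the list median (red); dotted lines mark 2-fold. Most points lie near 0, and the medians of immediate-early genes (0.36) and pan-reactive astrocyte genes (0.24) lie farthest from it.

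Other cell types of the midbrain had medians near that of all genes. The 15 dopaminergic genes had a median of 0.02, and 14 were bounded within 2-fold, all but Pitx3, a transcription factor at 0.289 to 1.3 CPM. Th had 41.0, 36.6 and 54.4 CPM in Cre- Saline and 42.9, 44.2 and 35.8 in Cre+ Saline (log2 -0.1, 95% interval -0.42 to 0.21), and the dopamine transporter Slc6a3 was at -0.18 (-0.57 to 0.21). The 12 microglia genes had a median of -0.08, with Cx3cr1 at 0.09 (-0.11 to 0.29), Csf1r at -0.04 and C1qa at -0.2. The 9 oligodendrocyte genes had a median of -0.04 and Mbp was at 0.02 (-0.23 to 0.26).

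Endothelial and motor neuron genes lay off that centre without passing the test. Of 7 endothelial genes, 5 were below 0 (median -0.18). Cldn5 had 88.2, 62.3 and 64.8 CPM against 45.8 to 59.8 without overlap (log2 -0.47, adjusted p = 0.845, edgeR), and Ly6c1 was at -0.3; Flt1, a VEGF receptor, was at 0.02. Apold1, Klf4 and Ctla2a are also known from endothelium, and the 7 markers summed to 393 to 409 CPM in Cre- Saline and 353 to 377 CPM in Cre+ Saline; the part of endothelial content in the called genes was not tested. All 7 genes of cholinergic motor neurons were above 0 (median 0.44). The choline transporter Slc5a7 had 18.1, 28.9 and 20.3 CPM against 35.5, 30.1 and 31.2 (log2 0.52), and Chat, which makes acetylcholine, was at 0.44 (0.02 to 0.87, adjusted p = 0.845, edgeR).

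The other marker lists were short. GABAergic genes had a median log2 fold change of -0.06 (8 tested), serotonergic genes -0.01 (3), glutamatergic genes 0.05 (4), oligodendrocyte precursor genes -0.07 (5), and meningeal genes 0.05 (6). Pericyte and smooth muscle genes were at -0.18 (6), ependymal genes at -0.23 (5), thalamic genes at -0.14 (4), hypothalamic genes at -0.1 (5 of 7), pineal genes at -0.73 (2 of 4) and genes that differ between C57BL/6 substrains at -0.12 (2 of 3). No member of these lists was called.

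Pituitary hormone genes were high in 2 of the 3 Cre+ Saline mice. Pituitary cells each make 1 or a few of these peptide hormones in great amounts, and the gland lies under the brain. Summed over 7 hormone genes, Cre- Saline mice had 42.6, 9.67 and 15.7 CPM and Cre+ Saline mice 627, 25.2 and 459 CPM. Cre+ mice 1 and 3 lay more than 10-fold above every other Saline library, while Cre+ mouse 2 lay within the Cre- range. The means were 22.6 ± 17.5 and 371 ± 311 CPM (SD, n = 3 each), a difference of 348 (two-sided exact permutation p = 0.2, where 0.1 is the smallest possible).

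Gh, Prl, Pomc and Cga were each highest in Cre+ mouse 1 and next highest in Cre+ mouse 3. Gh, growth hormone, had 19.1, 3.37 and 5.67 CPM in Cre- Saline and 423, 12.5 and 335 CPM in Cre+ Saline; in TPM it ranged from 13.1 to 1710. Prl, prolactin, had 3.54, 0.594 and 1.41 CPM against 85.5, 0.991 and 49.1, and Pomc, the precursor of ACTH and melanocortins, had 17.0, 2.58 and 5.19 against 94.2, 7.27 and 58.9. Cga, the common subunit of the glycoprotein hormones, had 3, 2 and 0 counts in Cre- Saline and 286, 10 and 203 counts in Cre+ Saline.

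Lhb and Fshb, the specific subunits of luteinizing and follicle-stimulating hormone, had at most 0.483 CPM in Cre- Saline, and 3.56 and 3.68 CPM in Cre+ mouse 1. Tshb, the thyrotropin subunit, was the exception with 2.29 to 2.96 CPM against 3.43 to 5.72. None of the 6 hormone genes tested passed (fitted log2 fold changes 0.69 to 6.56, adjusted p from 0.19, edgeR), and the call changed with the fit. DESeq2 on the same libraries called Cga and Lhb, and the fit with the replicate block, which called 21 higher genes in all, included Cga, Gh, Lhb, Pomc and Prl. Cga and Gh were called with a term for the run of animal numbers, Gh and Prl without Cre+ Saline mouse 2, and Gh, Pomc and Cga without Cre- Saline mouse 1.

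Defining regulators of the gland were also in these 2 libraries, at low levels. Pou1f1, the factor of somatotrophs and lactotrophs, had 1.12 and 0.734 CPM in Cre+ mice 1 and 3 and at most 0.241 in the other 4 libraries. Ghrhr, the receptor for growth hormone-releasing hormone, had 1.76 and 0.618 CPM in them against at most 0.124. Tbx19 of corticotrophs was at 0 in the 3 Cre- libraries and at 0.4 and 0.193 CPM in Cre+ mice 1 and 3. Of 8 regulators, Pitx1 and Neurod4 passed the filter and 0 were called.

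The promoter of Prl is printed because its POU1F1-like letters sit beside the TATA box (RefSeq, GRCm38.p6, chr13:27057320-27057569, plus strand; capitals mark TATNCAT on either strand and TATAAA).
Prl: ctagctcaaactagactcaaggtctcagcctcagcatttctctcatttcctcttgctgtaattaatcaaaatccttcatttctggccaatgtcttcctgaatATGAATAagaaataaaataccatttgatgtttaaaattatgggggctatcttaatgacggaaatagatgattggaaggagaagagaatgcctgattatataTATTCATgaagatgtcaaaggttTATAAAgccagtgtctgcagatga
The TATNCAT matches began at -148 on the other strand and at -47 on this one, and TATAAA at -24. Cga, Pomc, Lhb, Fshb and Tshb had TATAAA within 31 bases of the start site as well.

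The called genes were then examined without the hormone genes. Taking the listed pituitary genes out before normalization left the same 6 calls. That step removes only those genes and no other RNA of the gland, so it cannot show the part of pituitary tissue in the calls. With the hormone level as a covariate 5 of the 6 passed among 8, all but Tmem252. In Cre+ mouse 2, the Cre+ library lowest in hormones, all 6 had their highest values. These were 68.4 CPM for Apold1, 24.8 for Zfp36, 24.9 for Klf4, 61.6 for Btg2, 39.4 for Ccn1 and 6.61 for Tmem252. This is 1 library, and the part of pituitary tissue in the calls was not tested. Genes of no list whose level over the 6 libraries was most correlated with the hormone sum were Trim30d, 9430038I01Rik, the epithelial adhesion gene Epcam, Mpzl3 and the macrophage gene Mpeg1. Epcam had 20, 6 and 9 counts in Cre- Saline and 51, 7 and 51 in Cre+ Saline, and Mpeg1 20.7 to 21.8 CPM against 26.3, 20.4 and 25.7 CPM.

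**Figure D4:**
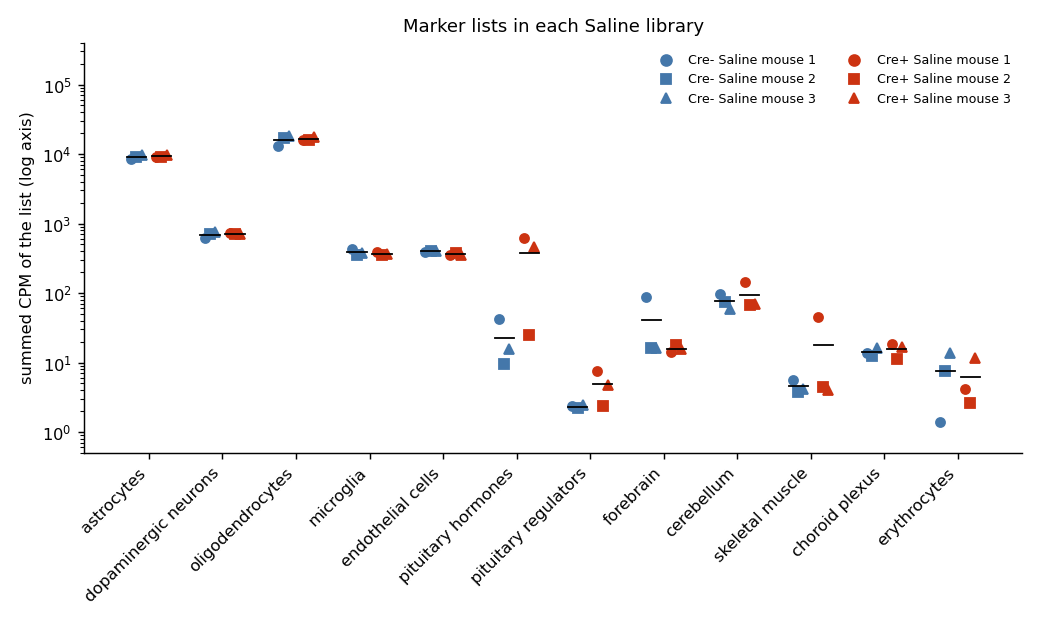
Summed CPM (log axis) of 12 marker lists in each of the 6 Saline libraries; points are mice and bars are group means. Astrocyte and microglia sums were close in all libraries, and oligodendrocyte sums were 13044 CPM in Cre- mouse 1 and 15756 to 17936 CPM in the others. Pituitary hormones reached 627 and 459 CPM in Cre+ mice 1 and 3 and forebrain genes 88.6 CPM in Cre- mouse 1.

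Forebrain genes separated 1 control. Tbr1, a transcription factor of cortical projection neurons, had 17.9 CPM in Cre- Saline mouse 1 and at most 0.888 CPM in the other 5 libraries. The 6 genes summed to 88.6 CPM in that library and to 14.2 to 17.6 CPM in the others. The fitted log2 fold change of Tbr1 (-3.32) therefore rests on this mouse; it did not pass, and without that mouse it was 0.28 (-0.81 to 1.37). The median of the 5 forebrain genes tested was -2.46 with it and 0.16 without it. The vesicular glutamate transporter Slc17a7, typical of cortex and cerebellum, had 244 CPM there and 93.7 to 125 CPM in the other libraries, and its log2 fold change was -0.48 with that mouse and -0.03 (-0.26 to 0.2) without it.

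Muscle, cerebellar and blood genes also varied between single libraries. The muscle genes summed to 45.9 CPM in Cre+ mouse 1 and to 3.72 to 5.67 CPM in the others, led by Mb, myoglobin (21.7 CPM), and cardiac actin, Actc1 (17.5 CPM). The 3 muscle genes tested had a median of 2.97 and the 5 cerebellar genes 0.36, and 0 passed. Both medians changed sign without Cre+ mouse 1 (-0.06 and -1.11), and that of cerebellar genes was 1.48 without Cre- mouse 1. The cerebellar genes summed to 142 CPM in Cre+ mouse 1 and to 98.1 CPM in Cre- mouse 1, against 58.5 to 73.1 CPM in the other 4. Hemoglobin and heme synthesis genes summed to 1.41 to 13.6 CPM, with both groups overlapping, and choroid plexus genes to 11.4 to 18.7 CPM; their medians of -0.28 and 0.05 also changed sign as single libraries were left out (-1.23 to 0.41 and -0.22 to 0.23). The part of these admixtures in the 6 called genes was not tested. Without Cre- Saline mouse 1 all 6 passed, and without Cre+ mouse 1 only Apold1 did, although the fold changes were alike. Without Cre+ mouse 1, Apold1 was at 2.77, Zfp36 at 1.88, Klf4 at 1.17, Btg2 at 1.68, Ccn1 at 2.4 and Tmem252 at 1.53 on the log2 scale.

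**Figure D5:**
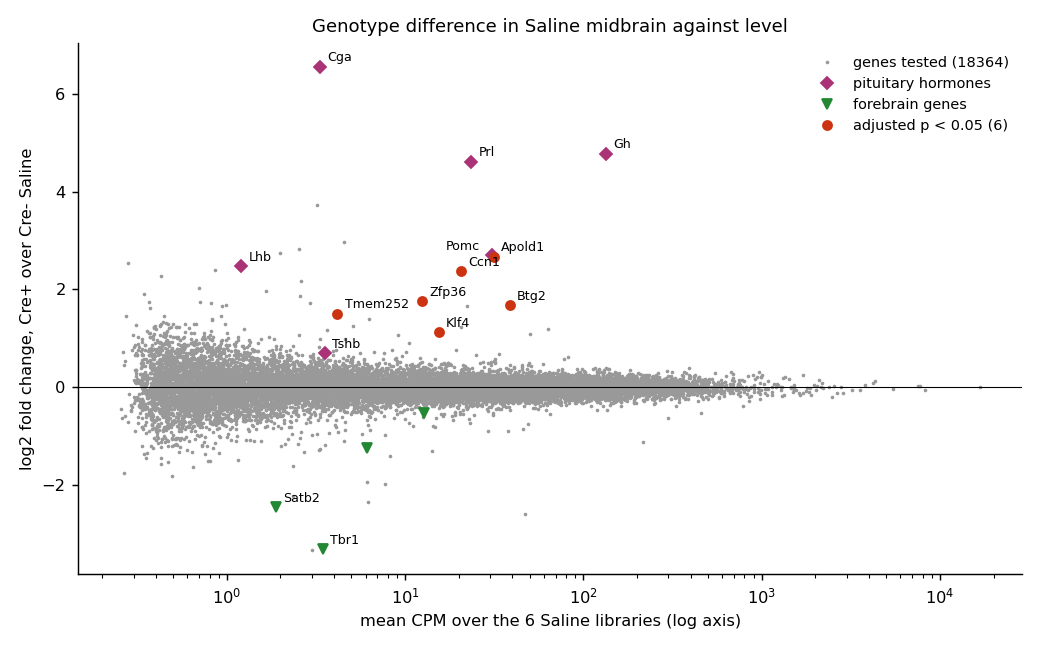
Log2 fold change (Cre+ over Cre- Saline) against mean CPM (log axis) for the 18364 genes tested. The 6 called genes (red) lie between 1.12 and 2.67, the pituitary hormones (purple) between 0.69 and 6.56 and 4 forebrain genes (green) between -0.53 and -3.32, and most genes lie near 0.

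Genes around Ripk3, which carries the floxed allele, and around Aldh1l1, whose promoter the transgene uses, were examined for local differences. The place where the transgene is inserted was not analysed here. Within 500 kb of endogenous Aldh1l1 (chromosome 6, 90486427 to 90600203) 8 of 38 neighbours were tested, 0 were called and all 8 were bounded within 2-fold; only Slc41a3, a magnesium transporter, had p under 0.05 (log2 0.33, adjusted p = 0.845, edgeR). Within 500 kb of Ripk3, 31 of 57 neighbours were tested, 0 were called and 25 were bounded within 2-fold. Here only Nfatc4, a calcineurin-regulated transcription factor, had p under 0.05 (log2 -0.56, adjusted p = 0.845, edgeR).

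Genes that differed by genotype under MPTP were then followed in the Saline mice, which are other animals. In the fit to all 13 libraries, 299 of 19360 genes (1.54%) were called between Cre+ MPTP and Cre- MPTP, 100 higher and 199 lower, and 279 of them were tested in Saline. Counting a change in the direction seen under MPTP as positive, their median log2 fold change in Saline was -0.017 (quartiles -0.157 and 0.118), and 128 of 279 had the same sign. The median absolute log2 fold change was 0.144 in Saline and 1.62 under MPTP.

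Of these 279 genes, 1 was called in Saline, Tmem252, and in the opposite direction (-1.96 under MPTP and 1.5 in Saline). Ctla2a likewise was at -2.26 and 1.25. Of the 279, 22 had an unadjusted p under 0.05, that is, 7.89% against 4.94% of all genes tested. The interval lay within 2-fold for 228 (81.7%, against 83.2% of all). Cebpd, a transcription factor of the acute phase response, was at -4.53 under MPTP and at -0.11 (-0.57 to 0.35) in Saline. The small MAF factor Maff was at -3.69 and 0.55 (0.02 to 1.08), the pentraxin Ptx3 at -3.53 and -0.5 (-1.34 to 0.34), the secreted glycoprotein Lrg1 at -3.43 and -0.46 (-1.26 to 0.34) and the nuclear IkB protein Bcl3 at -3.4 and 0.01 (-0.67 to 0.69). Among genes higher under MPTP, Gm9946 was at 3.21 and 0.04 (-0.72 to 0.8), Myct1 at 3.2 and -0.32 (-1.08 to 0.44), Gm45650 at 3.17 and 1.74 (0.76 to 2.72), Gkn3 at 3.14 and -0.95 (-1.58 to -0.31) and 4930432E11Rik at 3.01 and 0.16 (-0.41 to 0.73). None of these 10 passed in Saline (adjusted p of 0.845 or more, edgeR). They have the 5 largest changes in each direction under MPTP and were chosen after their values were seen, so their MPTP values are a description. A difference between the Saline and MPTP contrasts was not tested.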

How the data were processed

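Total RNA of midbrain was prepared with TruSeq Stranded Total RNA kits. After trimming (Trimmomatic 0.36) and alignment to GRCm38 (STAR 2.5.2b), the authors deposited raw counts of unique hits per gene from featureCounts (Subread 1.5.2), without normalization; the strand setting is not given in the sources used here. Names of 49056 of 49315 genes came from GENCODE M21.

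Libraries were grouped by label. edgeR 4.0.16 in R 4.3.3 was run on the 6 Saline libraries (TMM, at least 10 counts in at least 3 libraries, quasi-likelihood test, Benjamini-Hochberg adjustment, threshold 0.05). The 95% interval is the log2 fold change ± its standard error times the t quantile. TPM used exon lengths of the files. The p-values measure spread between separate mice. Alternatives used DESeq2 1.42.0, limma 3.58.1, other filters, scalings, samples and covariates; 3 were added after seeing the data (gene length trend, and 2 on animal numbers). The fit was also run on simulated counts with 200 genes changed. Those counts held no admixed tissue, so that run cannot show how the fit behaves with it.

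Named genes were those of 36 marker and pathway lists, all called genes, the 10 smallest p in each direction, the 20 highest TPM, genes within 500 kb of both loci and 10 most like the pituitary hormones. The libraries and lists were chosen with earlier results of these data known. Intervals on counts cover counting error only. Results for some genes are not reported here.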

Additional observations from a re-analysis of the deposited data

How the results depend on the processing

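The count of 6 higher and 0 lower genes moved with several choices, and the cause was not tested. DESeq2 on the 6 libraries gave 16 and 3 and limma voom with sample quality weights 12 and 2, each including the 6. With all 13 libraries in the fit DESeq2 gave 2 higher (Atf3 and Cga) and edgeR 0, with median interval widths of 1.22 and 1.29. Without a filter on low counts there were 92 and 87 calls among 33020 genes, 25 and 8 of them below the filter, a width of 1.66 and 47.3% of genes bounded within 2-fold. The higher run of animal numbers alone gave 14 and 1, and a term for the run 15 and 1. With the replicate block there were 21 higher and 1 lower gene. Deviations from the group means of same-numbered animals across genes had r of 0.0185, -0.049 and -0.118. Each Cre- animal had a higher r with a Cre+ animal of another number (up to 0.0943, 0.046 and 0.167). With 3 mice per group and tissue that differed between libraries, this cannot show whether the numbers pair the animals. Without Cre+ Saline mouse 1 and mouse 3 together (lone library assumed to vary like the controls) there were 0 calls, 224 genes at an unadjusted p under 0.05 and a width of 1.0. Leaving out 1 library gave 0 to 15 higher and 0 to 1 lower genes. Counts stayed within 1.5 times with DESeq2 size factors, at least 10 counts in all 6 libraries, pituitary genes removed, the hormone level as covariate (8) and the gene length trend removed (4). The pituitary difference ranged from 220.0 to 521 CPM over left-out libraries, and the median of MPTP genotype genes from -0.05 to 0.003. No log2 fold change of the 6 called genes reversed, while the medians of pan-reactive (-0.04 to 0.39), cerebellar (-2.46 to 1.48), forebrain (-3.62 to 0.2) and muscle genes (-0.53 to 3.49) changed sign. Of 6606 bounds on 335 genes under alternatives, 1351 moved by over 1 SE. Among bounds of genes not called, 96 had an adjusted p under 0.05 in the fit of an alternative. Depth limits genes under 1 CPM, most of which are not bounded within 2-fold.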

Other observations

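Genes that were high in 1 Saline library (at least 50 counts there and over 4 times the next library) were counted in each. Cre- Saline mouse 1 had 26, led by Ddn, a dendritic protein of forebrain neurons, at 213 CPM against at most 17.4, with Icam5, the telencephalic adhesion molecule, at 42.6 against at most 9.56. Cre+ Saline mouse 1 had 13, led by cardiac muscle genes: Myh6 at 79.5 CPM against at most 13.6, Myl2 at 11.7 against at most 0.927 and Mybpc3 at 7.32 against at most 1.49.

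Cre+ Saline mouse 3 had 8, and all were Hox genes, which pattern the hindbrain and spinal cord. Hoxb8 measured 15.1 CPM there and at most 0.259 CPM in the other 5 Saline libraries, Hoxa7 5.68 against at most 0.24, Hoxb6 4.67 against at most 0.185 and Hoxb9 4.17 against at most 0.124. The other 3 libraries had 0 such genes. These genes were picked for their levels, so the values are a description.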
